A study of Mus musculus with 9 samples.

Results

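The genes described here carry glucose into the heart cell, break it down to pyruvate and lactate, feed pyruvate into the mitochondrion and oxidise it in the citric acid cycle. They number 40 of the 22061 named genes on the array, and all 40 were measured. They were chosen by name as textbook members of these pathways, not by their signals. For each gene the probe set (a group of probes summarised to 1 value) with the highest mean signal was used. By role they fall into 2 glucose transporters, 8 enzymes of the hexose phosphate steps of glycolysis, 7 enzymes of its triose phosphate steps and 3 genes of lactate handling. The others are 5 parts of the pyruvate dehydrogenase complex, 2 kinases that inhibit it and 13 subunits or enzymes of the citric acid cycle.

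Male mice gave total RNA of the heart's right ventricle, which was hybridised to Affymetrix arrays, 1 array for each of 9 samples, in 3 groups of 3. The first group was wild-type and ate the vitamin A sufficient diet, with retinol palmitate at 250000 U per kg. The second was LRAT -/- mice on the same diet, and the third was LRAT -/- mice on the vitamin A deficient diet, which was otherwise the same diet without the retinol palmitate. All mice were on their diet for 50 days. LRAT (lecithin:retinol acyltransferase) is the enzyme that makes the retinyl esters in which vitamin A is stored. Strain, age and the construction of the LRAT allele were not given in the sources used here, and there was no wild-type group on the deficient diet. No label says that the samples came from separate animals, so the p-values reflect only how these samples spread, which may be technical.

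The Lrat probe set went against the genotype labels. Its log2 signal was 6.34 ± 0.09 (SD, n = 3) in the wild-type arrays, 7.87 ± 0.22 in the arrays labelled LRAT -/- sufficient and 7.69 ± 0.12 in those labelled LRAT -/- deficient. Every array labelled LRAT -/-, at 7.58 to 8.09, was above every wild-type array. Whether these probes lie in the deleted part of the gene was not given in the sources used here, so directions below are those of the labels. All 10 cardiomyocyte markers were more than 1 (log2) above the array background, as were 3 of 4 atrial and 8 of 8 fibroblast markers. The medians of the arrays lay between 7.16 and 7.21 (log2), and the dimmest member in any array was 2.82 above that array's background on the log2 scale. The number of arrays limits the precision.

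Glycolysis splits glucose in the cytosol into pyruvate, which lactate dehydrogenase exchanges with lactate. Pyruvate dehydrogenase turns pyruvate into acetyl-CoA in the mitochondrion, and the citric acid cycle oxidises acetyl-CoA to carbon dioxide while loading electrons for the respiratory chain. The adult heart draws most of its ATP from mitochondrial oxidation, burns mainly fatty acids, and also takes up lactate and glucose. Retinoic acid, made from vitamin A, acts through nuclear receptors that bind pairs of AGGTCA-like hexamers in DNA.

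Upstream sequences are shown for 2 genes picked by their values, neither of which passed the test described below. Slc16a1 had groups that did not overlap in any of the 3 comparisons. Fh1 had the lowest adjusted p of the members in the comparison of LRAT -/- deficient with wild type. The sequences are the 250 bases before the gene's start, from RefSeq on GRCm38.p6, read on the gene's own strand. The Slc16a1 stretch is chr3:104638414-104638663 on the plus strand, with capitals marking a CACGTG hexamer whose first base is at -200 from the start. The Fh1 stretch is chr1:175625636-175625885 on the minus strand, with capitals marking TGACCT, the reverse complement of AGGTCA, whose first base is at -188.
Slc16a1: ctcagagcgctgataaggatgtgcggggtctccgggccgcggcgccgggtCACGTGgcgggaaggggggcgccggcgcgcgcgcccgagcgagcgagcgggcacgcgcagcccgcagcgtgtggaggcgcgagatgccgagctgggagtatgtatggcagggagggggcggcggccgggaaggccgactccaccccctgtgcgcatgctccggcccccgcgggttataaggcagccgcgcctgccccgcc
Fh1: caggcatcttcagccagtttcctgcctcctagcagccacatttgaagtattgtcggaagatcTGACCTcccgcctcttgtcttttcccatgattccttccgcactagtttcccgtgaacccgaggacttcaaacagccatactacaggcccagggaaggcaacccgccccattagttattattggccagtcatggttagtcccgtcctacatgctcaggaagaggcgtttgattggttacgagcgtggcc
A stretch was found for 38 of the 40 members. For genes with several listed starts, such as Ogdh with 6 and Pfkm with 4, only the first listed was used. Each was searched on both strands for AGGTCA, the nuclear receptor hexamer, for ACGTG, the core bound by hypoxia-inducible factors, and for CACGTG, the E-box, which contains ACGTG. The hexamer AGGTCA was in 5 of the 38, against 13.8% of 27025 genes with such a stretch; the 5 were Fh1, Eno1, Eno3, Ldhb and Sucla2. ACGTG was in 12 of 38 against 16.6%, and CACGTG in 4 of 38 (Slc16a1, Ldha, Pfkm and Pdk2) against 6.05%. These are matches of letters and not sites of binding.

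No member passed the test in any comparison of the groups. The diet comparison set LRAT -/- deficient against LRAT -/- sufficient, the genotype comparison set LRAT -/- sufficient against wild type, and the combined comparison set LRAT -/- deficient against wild type. Differences are first group minus second. Each group serves in 2 of them, so they are not independent. Genes were called with limma at an adjusted p under 0.05, with Benjamini-Hochberg adjustment over all 22061 genes.

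In the diet comparison limma called 0 of 40 members, against 0% of all genes, and the lowest adjusted p of a member was 1. In the genotype comparison it called 0 of 40 members against 0.0363% of all genes, with a lowest member adjusted p of 0.779. In the combined comparison it called 0 of 40 against 0.068%, with a lowest of 0.773. At an unadjusted p under 0.05, the members numbered 1 in the diet comparison (1.31% of all genes), 2 in the genotype comparison (5.72%) and 2 in the combined comparison (6.09%). With array number as a block these numbers of members were 1, 1 and 2, while the number of all genes went from 290 to 533 (2.42%), from 1261 to 1846 (8.37%) and from 1344 to 1884 (8.54%). A moderated F test over the 3 groups called 0 members, against 0.0408% of genes, and 1 member, Slc16a1, had an unadjusted p under 0.05 (4.4% of genes). In the authors' deposited table, 8 of 35556 probe sets had a false discovery rate under 0.05 and no member did, the lowest being 0.773. In the authors' deposited table, there were 3, 2 and 3 members with a p under 0.05 in the diet, genotype and combined comparisons, against 3.63%, 7.0% and 7.52% of all probe sets.

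The fitted differences were small. They ran from -0.29 to 0.13 (log2) in the diet comparison, from -0.16 to 0.42 in the genotype comparison and from -0.17 to 0.22 in the combined comparison. The medians over the members were 0.02, 0.04 and 0.04, beside -0.01, 0.00 and -0.01 over all genes. In each comparison the 95% interval of the difference lay within ±0.5 (1.41-fold) for 38 of the 40 members, the exceptions being Pgam1 and Sucla2, and within ±1 for all 40. The members' SD within groups, pooled over the 3 groups, had a median of 0.0925 (log2), from 0.0495 to 0.334. The median was 0.141 over the 5385 genes at or above the signal of the dimmest member.

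**Figure D1:**
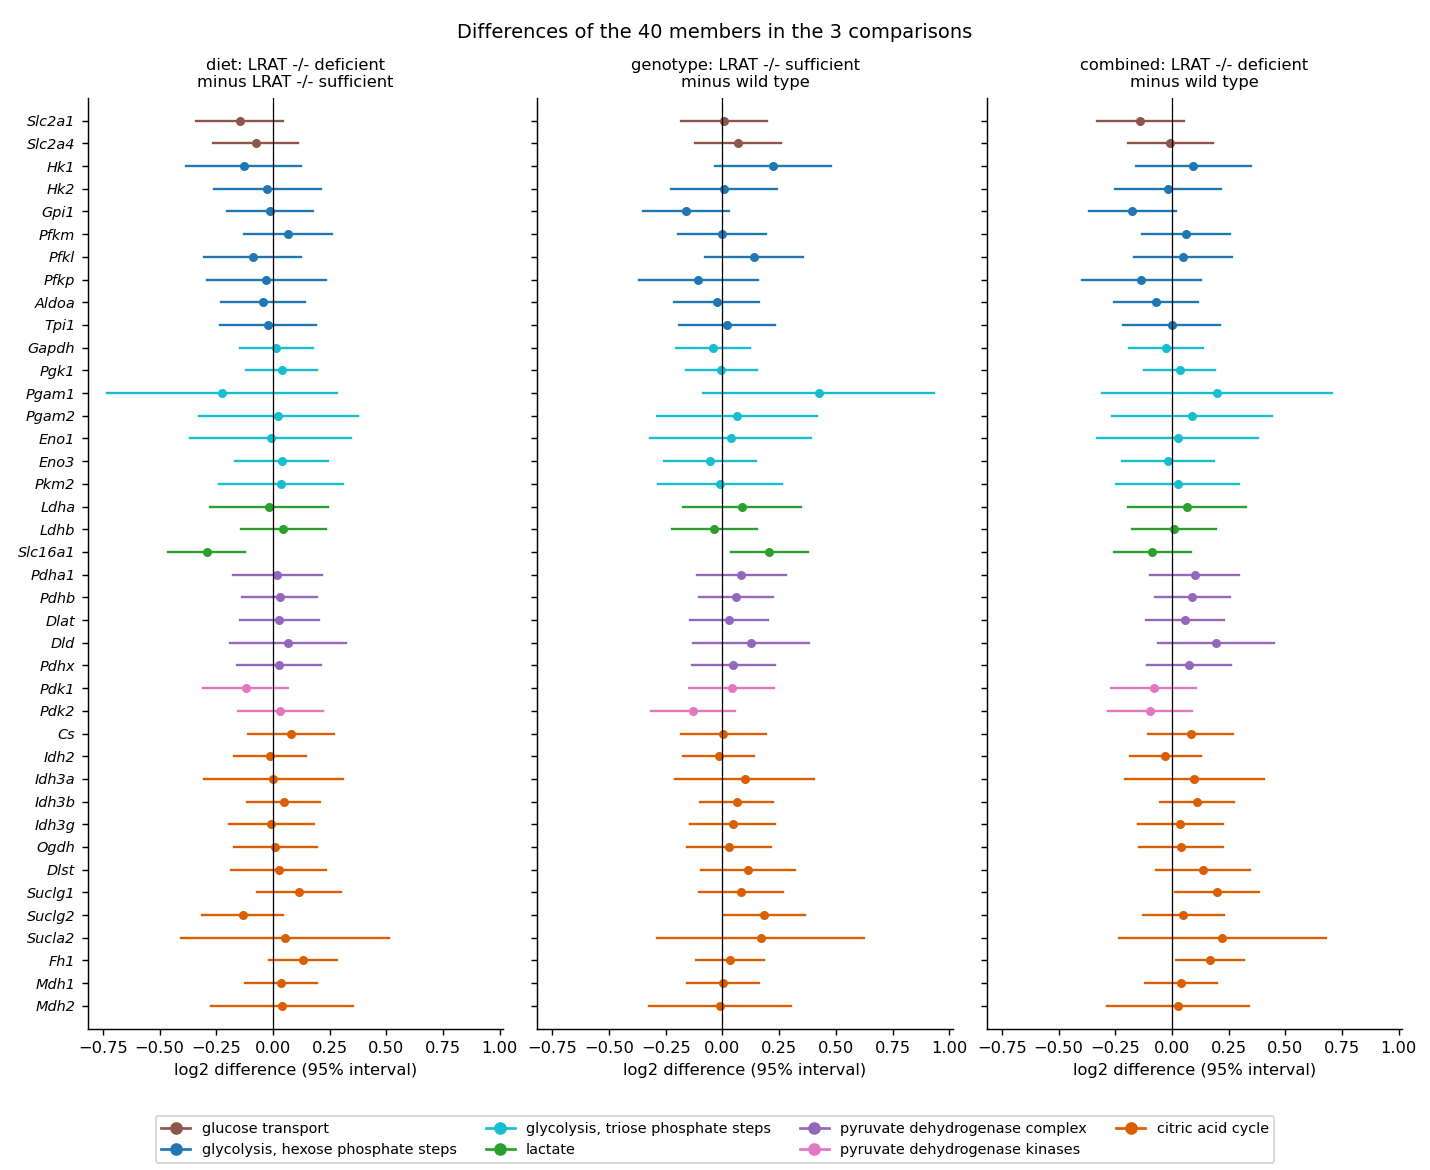
Log2 difference of each of the 40 members (point) with its 95% interval from limma (line) in the diet, genotype and combined comparisons, coloured by role. In each comparison, 38 of the 40 intervals lie within ±0.5; Pgam1 and Sucla2 have the widest intervals.

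Glucose enters the cardiomyocyte through Slc2a1 (GLUT1), the basal transporter, and Slc2a4 (GLUT4), the transporter that insulin and contraction bring to the surface. The Slc2a1 log2 signals were 9.48, 9.46 and 9.60 in wild type, 9.49, 9.47 and 9.60 in LRAT -/- sufficient, and 9.42, 9.47 and 9.23 in LRAT -/- deficient. The sufficient groups were close to each other array by array, and the deficient group overlapped both, with array 3 the lowest of all. The diet difference was -0.15 (95% interval -0.34 to 0.04), with an unadjusted p of 0.115 and an adjusted p of 1 in limma, and it was -0.04 without the arrays numbered 3 and -0.08 without deficient array 3 alone. Slc2a4 lay between 11.88 and 12.15 in all arrays, with differences of -0.08, 0.07 and -0.01 in the diet, genotype and combined comparisons.

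The hexose phosphate steps run from hexokinase to triose phosphate isomerase. Hk1, the hexokinase found in most tissues, gave log2 signals of 9.81, 10.14 and 10.23 in wild type, 10.34, 10.29 and 10.21 in LRAT -/- sufficient and 10.21, 10.22 and 10.03 in LRAT -/- deficient. Wild-type array 1 was the lowest array, and all groups overlapped. Its genotype difference was 0.22 (-0.03 to 0.48), with an unadjusted p of 0.0787 and an adjusted p of 0.9 in limma, and it was 0.10 without wild-type array 1. Hk2, the insulin-regulated hexokinase of muscle, lay between 10.16 and 10.56, with a genotype difference of 0.01 (-0.23 to 0.24).

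Gpi1, which turns glucose 6-phosphate into fructose 6-phosphate, gave 12.86, 13.11 and 13.01 in wild type, 12.74, 12.88 and 12.87 in LRAT -/- sufficient and 12.85, 12.86 and 12.74 in LRAT -/- deficient. The upper wild-type arrays stood above every array labelled LRAT -/-, and wild-type array 1 fell among them. The genotype difference was -0.16 (-0.35 to 0.03) and the combined difference -0.17 (-0.37 to 0.02), with unadjusted p of 0.088 and 0.0685 and adjusted p of 0.906 and 0.86 in limma. Without wild-type array 2 they were -0.10 and -0.11. A further Gpi1 probe set gave a combined difference of -0.18.

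The phosphofructokinase isoforms, which commit sugar to glycolysis, were measured apart: Pfkm of muscle, Pfkl of liver and Pfkp of platelets. The Pfkm differences were 0.07, 0.00 and 0.06 in the diet, genotype and combined comparisons. Those of Pfkl were -0.09, 0.14 and 0.05, and those of Pfkp were -0.03, -0.11 and -0.14. Each of these 9 intervals included 0. Deficient array 3 was the lowest Pfkp array, at 8.40 against 8.67 to 8.90 in the others, and without it the diet difference was 0.11 and the combined difference 0.00. Aldoa, the muscle aldolase, and Tpi1, triose phosphate isomerase, differed by at most 0.07 in any comparison. Tpi1 read exactly 13.0291 in every LRAT -/- deficient array, an SD of 0, and in LRAT -/- sufficient array 3. The cause of this tie was not tested. Of the 8 genes of these steps, 1, 4 and 3 were higher in the diet, genotype and combined comparisons, with ranges of 0 to 4, 2 to 6 and 0 to 5 over the other settings. The combined count was 0 without wild-type array 1 and 5 with array medians centred.

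The triose phosphate steps give ATP and pyruvate. Gapdh, the dehydrogenase often used as a reference gene, ranged only from 14.46 to 14.62 over the 9 arrays, with differences of 0.02, -0.04 and -0.03. All 36 probe sets named Gapdh had a lower mean in LRAT -/- sufficient than in wild type, by -0.07 to -0.04; they may share sequence and are not counted as separate measurements. Pgk1, phosphoglycerate kinase, differed by at most 0.04 in the 3 comparisons.

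Pgam1 and Pgam2 are the widespread and the muscle forms of phosphoglycerate mutase. Pgam1 gave 10.63, 11.11 and 9.997 in wild type, 10.89, 11.08 and 11.05 in LRAT -/- sufficient and 10.66, 10.84 and 10.83 in LRAT -/- deficient. It had the largest spread of any member, 0.33 (SD within groups), since wild-type arrays 2 and 3 were its highest and its lowest arrays. The deficient arrays were all below the sufficient LRAT -/- arrays, with a diet difference of -0.22 (-0.73 to 0.28). The genotype difference was 0.42 (-0.08 to 0.93), the largest of any member, with an unadjusted p of 0.0925 and an adjusted p of 0.912 in limma. It was 0.13 without wild-type array 3 and 0.69 without wild-type array 2. The combined difference of 0.20 became -0.09 without wild-type array 3. Pgam2 lay between 11.98 and 12.62, with differences of 0.02, 0.06 and 0.09.

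Eno1, the widespread enolase, had differences of -0.01, 0.04 and 0.03, and Eno3, the muscle enolase, had 0.04, -0.06 and -0.02. Pkm2 is the pyruvate kinase gene of muscle and many other tissues, and its differences were 0.04, -0.01 and 0.02. Its probe set covers the gene and does not part the splice forms. Of the 7 genes of these steps, 5, 3 and 5 were higher in the diet, genotype and combined comparisons, with ranges of 2 to 6, 1 to 6 and 1 to 7 over the other settings. The combined count was 1 without the arrays numbered 3 and 7 with array medians centred.

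Lactate dehydrogenase is built from Ldha subunits, which predominate in skeletal muscle, and Ldhb subunits, which predominate in heart. Ldha lay between 12.23 and 12.64, and Ldhb between 12.71 and 12.94. The Ldha differences were -0.02, 0.09 and 0.07 in the diet, genotype and combined comparisons, and those of Ldhb were 0.05, -0.04 and 0.01. The intervals of all of them included 0.

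Slc16a1 encodes the monocarboxylate transporter MCT1, which moves lactate and pyruvate with a proton across the cell membrane. Its log2 signals were 11.90, 11.86 and 11.89 in wild type, 12.22, 11.99 and 12.07 in LRAT -/- sufficient and 11.83, 11.75 and 11.81 in LRAT -/- deficient. All LRAT -/- sufficient arrays were above all wild-type arrays, and all wild-type arrays were above all LRAT -/- deficient arrays. It was the only one of the 40 members whose groups did not overlap in any comparison. The share of all genes with that trait was not counted. The signal was 1.22-fold lower in the diet comparison, a log2 difference of -0.29 (-0.46 to -0.12), with an unadjusted p of 0.00356 and an adjusted p of 1 in limma. It was 1.15-fold higher in the genotype comparison, 0.21 (0.04 to 0.38), with an unadjusted p of 0.0226 and an adjusted p of 0.779. The combined difference was -0.09 (-0.26 to 0.08), with an unadjusted p of 0.283. Leaving out each array in turn gave diet differences of -0.34 to -0.23 and genotype differences of 0.14 to 0.26. In the authors' deposited table the ratios were 0.835, 1.13 and 0.941 in the diet, genotype and combined comparisons. There the p-value was under 0.05 only in the diet comparison, and the false discovery rate of the probe set was 0.788.

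**Figure D2:**
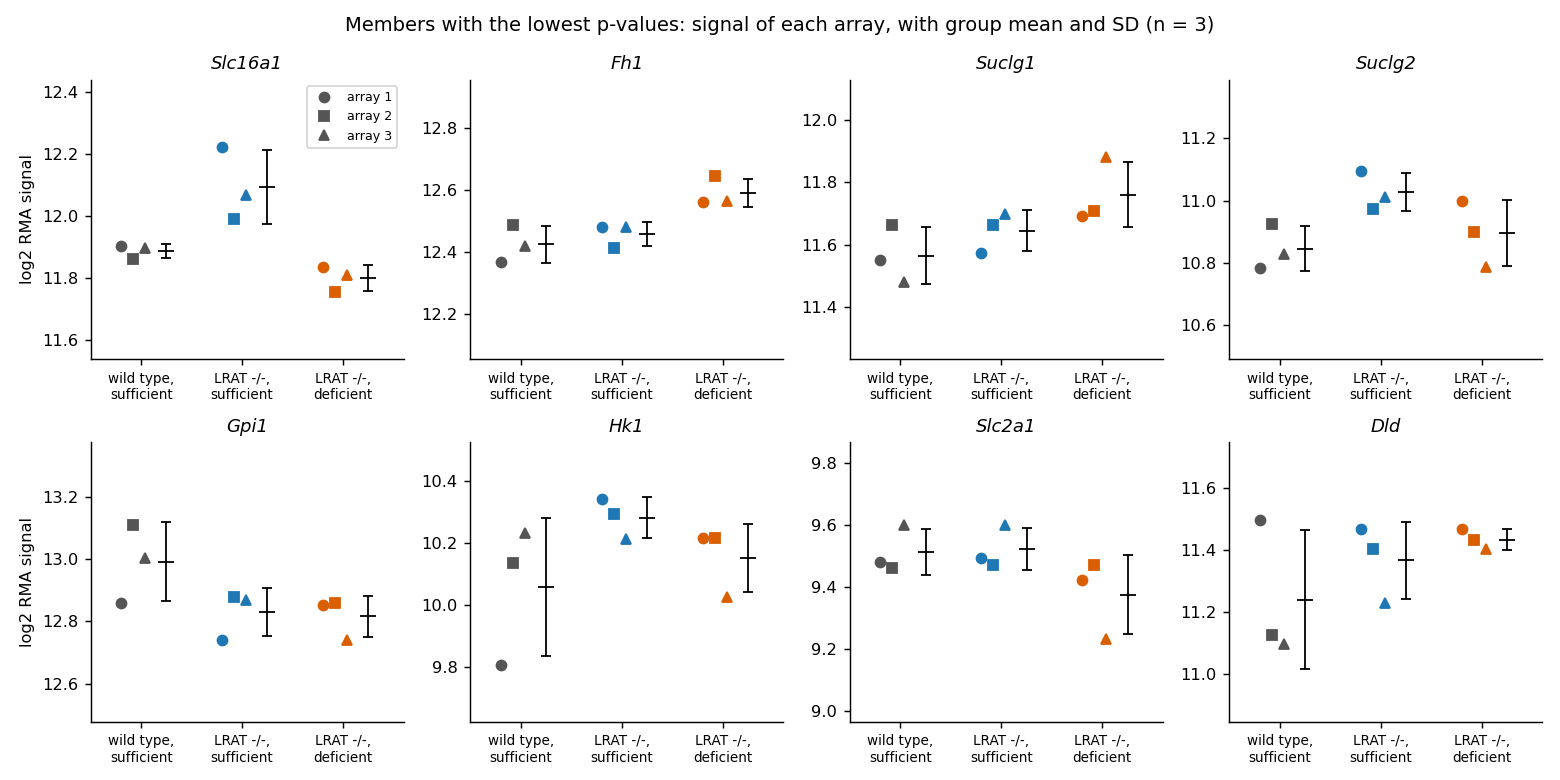
Log2 signal of each array for the 8 members with the lowest p-values, by group, with the group mean and SD (n = 3) as a bar; circles, squares and triangles are arrays numbered 1, 2 and 3, and every panel spans the same width in log2 units. The Slc16a1 groups do not overlap, and the Fh1 arrays labelled LRAT -/- deficient lie above all others.

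Groups that did not overlap were found for 4 members in the diet comparison, against 5.22% of all genes: Slc16a1 and Pgam1 were lower (3.26% of all genes were lower without overlap), and Fh1 and Idh3b higher (1.96%). In the genotype comparison 2 members (7.7% of all genes) did not overlap, Slc16a1 and Suclg2, both higher (3.67%), and none was lower (4.03%). In the combined comparison 4 did not overlap (8.15% of all genes), Slc16a1 being lower (4.88%) and Fh1, Suclg1 and Pdhb higher (3.28%).

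The pyruvate dehydrogenase complex joins 3 enzymes. Pdha1 and Pdhb form the decarboxylase E1, Dlat is the acetyltransferase E2, Dld is the lipoamide dehydrogenase E3, which also serves the oxoglutarate dehydrogenase complex, and Pdhx binds E3 to the core. All 5 genes had a positive difference in each comparison, and none passed the test. Over the other processing settings the number above 0 ranged from 2 to 5 in the diet comparison, from 4 to 5 in the genotype comparison and from 4 to 5 in the combined comparison. Since the comparisons share groups, these counts are not separate observations. The medians over the complex were 0.03, 0.06 and 0.09.

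Dld gave 11.50, 11.13 and 11.10 in wild type, 11.47, 11.40 and 11.23 in LRAT -/- sufficient and 11.47, 11.43 and 11.40 in LRAT -/- deficient. The wild-type arrays spanned the whole range, array 1 being the highest of all and array 3 the lowest, so the groups overlapped. The combined difference was 0.19 (-0.06 to 0.45), with an unadjusted p of 0.121 and an adjusted p of 0.91 in limma. It was 0.32 without wild-type array 1 and 0.12 without wild-type array 3. Pdhb gave 10.86, 10.99 and 10.99 in wild type and 10.99, 11.01 and 11.10 in LRAT -/- deficient, which was higher in every array by a narrow margin, with a combined difference of 0.09 (-0.08 to 0.25). The combined differences of Pdha1, Dlat and Pdhx were 0.10, 0.06 and 0.07.

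Pyruvate dehydrogenase kinases phosphorylate E1 and switch the complex off. Pdk1 differed by -0.12 (-0.31 to 0.07) in the diet comparison, 0.04 in the genotype comparison and -0.08 in the combined comparison. The diet difference was -0.05 without LRAT -/- sufficient array 1. Pdk2 differed by 0.03, -0.13 (-0.32 to 0.06) and -0.10, and its genotype difference was -0.06 without LRAT -/- sufficient array 1 and -0.09 without wild-type array 2. Neither passed the test, and the groups of both overlapped in every comparison.

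The citric acid cycle contributed 13 genes, of which 10, 11 and 12 were higher in the diet, genotype and combined comparisons, with medians of 0.04, 0.05 and 0.08. None passed the test, and the counts ranged from 6 to 11, 7 to 13 and 9 to 12 over the other processing settings. Of all 22061 genes, 45.2%, 51% and 45.7% were higher. For the 40 members together the numbers were 23, 28 and 27, with ranges of 15 to 27, 22 to 33 and 19 to 32 over the other settings. The number was 15 in the diet comparison without LRAT -/- deficient array 2, and 19 in the combined comparison without wild-type array 1, and with array medians centred the numbers were 23, 33 and 32. Beside these counts, 0 of 8 fibroblast markers were higher in the genotype and combined comparisons (medians -0.24 and -0.21), 1 and 0 of 8 mesothelial markers (-0.34 and -0.52) and 1 and 1 of 8 macrophage markers (-0.13 and -0.19). Of 10 cardiomyocyte markers, 5 and 5 were higher in these comparisons (medians -0.007 and -0.004). Of 8 endothelial markers 1 and 2 were higher (-0.16 and -0.01), and of 8 smooth muscle and pericyte markers 5 and 3 (0.04 and -0.03). Of 8 adipocyte markers 2 and 1 were higher (-0.02 and -0.04), and of 8 skeletal muscle markers 4 and 2 (-0.04 and -0.12). Of 4 atrial markers 3 and 3 were higher (0.06 and 0.15). Of 7 measured erythrocyte markers, 7 and 6 were higher (0.20 and 0.47). None of these markers passed the test, and their part in the members' counts was not tested.

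Fh1 encodes fumarase, which hydrates fumarate to malate. Its log2 signals were 12.37, 12.49 and 12.42 in wild type, 12.48, 12.41 and 12.48 in LRAT -/- sufficient and 12.56, 12.64 and 12.56 in LRAT -/- deficient. Every LRAT -/- deficient array was above every array of the other groups, which overlapped each other. The combined difference was 0.17 (0.02 to 0.32), or 1.12-fold, with an unadjusted p of 0.0337 and an adjusted p of 0.773 in limma. The diet difference was 0.13 (-0.02 to 0.28), with an unadjusted p of 0.0791 and an adjusted p of 1. Leaving out each array in turn gave combined differences of 0.14 to 0.20.

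Succinyl-CoA synthetase, the step that yields GTP or ATP directly, pairs the shared alpha subunit Suclg1 with the GTP-forming beta subunit Suclg2 or the ATP-forming beta subunit Sucla2. Suclg1 gave 11.55, 11.66 and 11.48 in wild type, 11.57, 11.66 and 11.70 in LRAT -/- sufficient and 11.69, 11.71 and 11.88 in LRAT -/- deficient. The deficient arrays were all above the wild-type arrays, with deficient array 3 the highest of all, and the LRAT -/- sufficient arrays overlapped both groups. The combined difference was 0.20 (0.01 to 0.38), with an unadjusted p of 0.0394 and an adjusted p of 0.789 in limma. It was 0.09 without the arrays numbered 3 and 0.40 between the arrays numbered 3.

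Suclg2 gave 10.78, 10.92 and 10.83 in wild type, 11.10, 10.97 and 11.01 in LRAT -/- sufficient and 10.999, 10.90 and 10.79 in LRAT -/- deficient. All LRAT -/- sufficient arrays were above all wild-type arrays, and the deficient arrays overlapped both. The genotype difference was 0.18 (0.00 to 0.36), with an unadjusted p of 0.0457 (0.0516 with array number as a block) and an adjusted p of 0.864 in limma. Both Suclg2 probe sets gave nearly the same genotype difference, 0.183 and 0.186. They may share sequence and are not counted as separate measurements. Sucla2 gave 12.03, 11.08 and 11.67 in wild type and lay between 11.58 and 11.92 in the arrays labelled LRAT -/-. Its wild-type arrays held both the highest and the lowest value, and without wild-type array 2 its genotype difference went from 0.17 to -0.09 and its combined difference from 0.22 to -0.03.

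Of the remaining enzymes, citrate synthase Cs, which opens the cycle, differed by 0.08, 0.00 and 0.08. The NAD-dependent isocitrate dehydrogenase subunits Idh3a, Idh3b and Idh3g had combined differences of 0.10, 0.11 and 0.04, and the NADP-dependent mitochondrial isocitrate dehydrogenase Idh2 had -0.03, the lowest of the 13. Idh3b lay from 13.07 to 13.11 in LRAT -/- deficient and from 13.04 to 13.06 in LRAT -/- sufficient, so these groups did not overlap although the diet difference was only 0.05 (-0.12 to 0.21). Ogdh and Dlst, parts of the oxoglutarate dehydrogenase complex, had combined differences of 0.04 and 0.14. The cytosolic and mitochondrial malate dehydrogenases Mdh1 and Mdh2 had 0.04 and 0.03.

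The members also varied from array to array within a group. Wild-type array 1 had 2 of the 15 glycolysis genes above their own mean over the 9 arrays, while wild-type array 2 had 13 and LRAT -/- sufficient array 2 had 14. In LRAT -/- deficient arrays 1, 2 and 3 the numbers were 8, 7 and 6. Of the 13 citric acid cycle genes, 1, 5 and 4 were above their mean in the arrays numbered 3 of the wild-type, sufficient LRAT -/- and deficient LRAT -/- groups. The other 6 arrays had from 5 to 11.

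**Figure D3:**
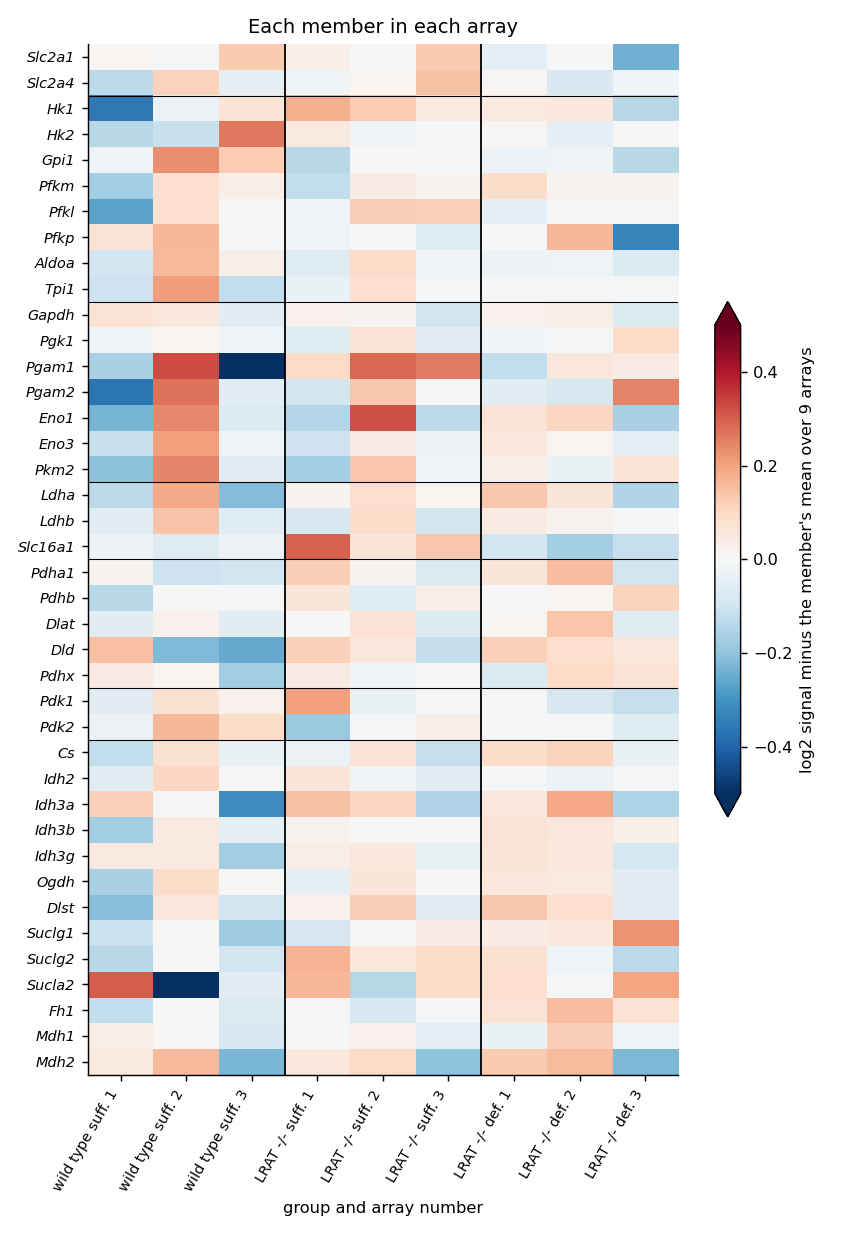
Colour shows the log2 signal of each member (rows, grouped by role) in each array (columns, grouped by label) minus that member's mean over the 9 arrays. Wild-type array 2 and LRAT -/- sufficient array 2 are mostly above the mean for glycolysis, with 13 and 14 of 15 genes, and the arrays numbered 3 are mostly below it for the citric acid cycle.

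The arrays numbered 3 in the titles stood apart across the groups, and no label says what the numbers share. A limma fit with group means and a term for those arrays called 750 genes, 3.4% of all, 298 of them lower (1.35%). It called 2 members, both lower, and both were named after their values were seen. Mdh2, which closes the cycle by oxidising malate, read 13.63, 13.66 and 13.64 in the arrays numbered 3 and 13.91 to 14.02 in the others. The arrays numbered 3 were below every other array in all groups, with a log2 difference of -0.33 ± 0.05 (SE) and an adjusted p of 0.0267. Idh3a, the catalytic subunit of isocitrate dehydrogenase, read 12.49, 12.65 and 12.65 in those arrays and 12.80 to 12.998 in the others, a difference of -0.31 ± 0.06 (SE) with an adjusted p of 0.0388. Idh3g, a regulatory subunit, differed by -0.15, with an adjusted p of 0.136, and Cs by -0.10, with an adjusted p of 0.388. Of all 40 members 28 were lower in the arrays numbered 3, against 45.9% of all genes. Each group holds 1 such array, and the group differences of Mdh2 and Idh3a were all within ±0.10.

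**Figure D4:**
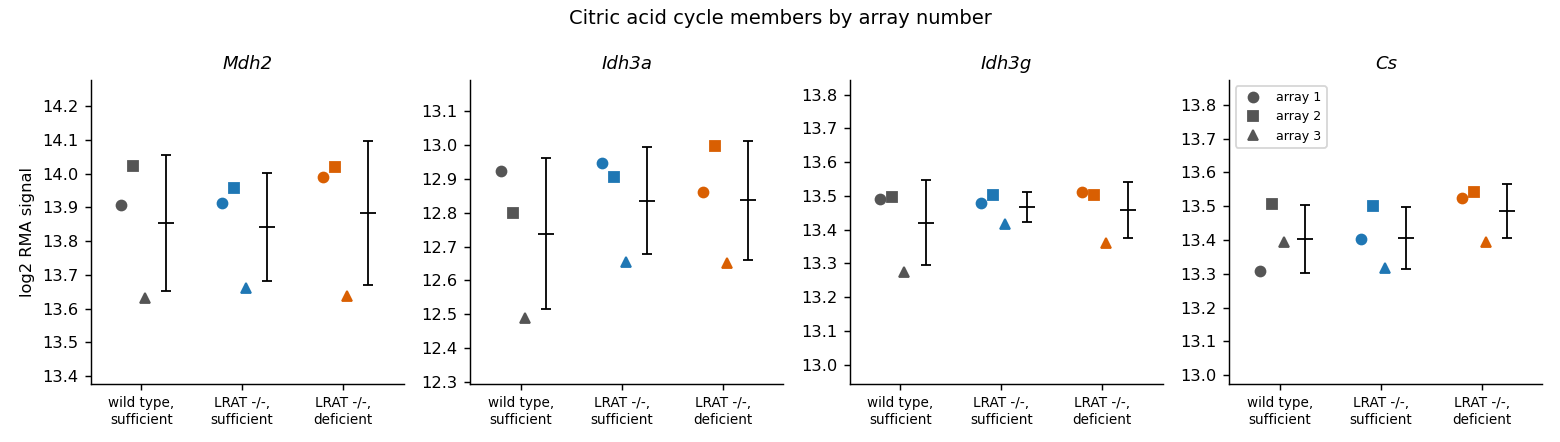
Log2 signal of Mdh2, Idh3a, Idh3g and Cs in each array, by group, with the group mean and SD (n = 3) as a bar; triangles are the arrays numbered 3, and every panel spans the same width in log2 units. For Mdh2 and Idh3a the triangles lie below every circle and square.

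Of 68 other genes of glucose and lactate transport, glycolysis, glycogen, pyruvate entry, the citric acid cycle and the malate-aspartate shuttle, all were measured. The test called 0 of them in the diet comparison, 0 in the genotype comparison and 1 in the combined comparison (0.068% of all genes). At an unadjusted p under 0.05 they numbered 3, 8 and 12 of the 68, against 1.31%, 5.72% and 6.09% of all genes. Their median differences were 0.02, 0.00 and 0.00.

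The gene called was Pfkfb1, one of the genes for the enzyme that makes and breaks fructose 2,6-bisphosphate, the activator of phosphofructokinase. Its log2 signals were 9.25, 9.09 and 9.49 in wild type, 9.65, 9.98 and 9.75 in LRAT -/- sufficient and 10.36, 10.39 and 10.22 in LRAT -/- deficient. The groups did not overlap and stood in that order. Pfkfb1 rose in the combined comparison by 1.04 (log2), with an adjusted p of 0.0204 in limma and 0.0463 with array number as a block. The diet and genotype differences were 0.53 and 0.52, with adjusted p of 1 and 0.391. Beside it, the summed signal of 8 mesothelial markers ran from 10.45 to 11.22 (log2) in wild type and from 9.94 to 10.26 in LRAT -/- deficient. That of 8 fibroblast markers ran from 13.49 to 13.52 and from 13.28 to 13.43. That of 8 skeletal muscle markers ran from 11.99 to 12.60 and from 11.25 to 11.48. Of these 8, 3 were more than 1 (log2) above the array background. Over all 8, the combined differences ran from -1.20 to 0.08, with a median of -0.12 and 2 higher. The sum of 4 atrial markers ran from 10.98 to 11.71 and from 10.39 to 10.63; of these Nppa had a combined difference of -1.34 and the other 3 were higher, with a median over the 4 of 0.15. The sum of 10 cardiomyocyte markers ran from 16.96 to 17.01 in wild type and from 16.97 to 17.03 in LRAT -/- deficient. That of 7 erythrocyte markers ran from 13.60 to 14.42 and from 14.24 to 14.69. Of these 7, 6 were higher in the combined comparison, with a median difference of 0.47. None of these markers passed the test, and their part in the Pfkfb1 result was not tested. In whole tissue, fewer cells of a type and less RNA per cell cannot be told apart.

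Among those that did not pass was Slc16a7 (MCT2), a lactate transporter related to Slc16a1, with a diet difference of -0.40 and an adjusted p of 1. Phkg1, the catalytic subunit of muscle phosphorylase kinase, had a genotype difference of 0.51 and an adjusted p of 0.557. Sdhd, a membrane anchor of succinate dehydrogenase, had a genotype difference of 0.29 and an adjusted p of 0.655.

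A single probe set was used for 33 members, and 7 had several: Gapdh had 36, Pgk1, Pgam1 and Eno1 had 3 each, and Gpi1, Ldhb and Suclg2 had 2 each. Gapdh, Pgk1, Pgam1, Eno1, Tpi1 and Ldha have pseudogenes of near-identical sequence, so their values are uncertain. Whether the probe sets of Suclg2, Ldhb and the other members also match sequence outside the gene was not tested, so their values may be uncertain too. Apart from Gapdh in the diet comparison, where 35 of 36 probe sets were higher, all probe sets of a gene gave the same direction in each comparison. Probe sets of the same gene may share sequence, so this agreement is not separate support. The authors' deposited table names the probe sets used for Tpi1, Eno1 and Idh2 LOC100044508, Nup35 and 2610034B18Rik and gives none for that of Gapdh, so these assignments are uncertain; the differences of the other Eno1 probe sets ran from -0.01 to 0.05.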

How the data were processed

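Values are log2 RMA signals that the authors deposited for 35556 probe sets on 9 arrays, 3 a group. RMA, R 3.1.2 and the mm8 build come from the submitters' processing notes. Per the file headers, the authors' second table gives a ratio and a p-value for each group comparison and 1 false discovery rate for each probe set, and it is quoted only where named. A further 9 columns of values matched no label and were not used. Array controls (6546) were left out, and 25465 probe sets with 1 gene symbol were updated through a RefSeq table of GRCm38.p6 (22115 matched by accession, 1815 by symbol, 625 by synonym). Of these, 22061 genes were tested, each by its brightest probe set.

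Differences were fitted with limma 3.58.1 in R 4.3.3 on all 9 arrays (residual degrees of freedom 6, prior 3.34), adjusted over all genes and called at an adjusted p under 0.05. Intervals are 95%. On simulated data the fit was tested for recovery of known changes. Tables and figures were made with Python 3.11.15, pandas 2.3.3 and matplotlib 3.10.9. Background is each array's median of the 5222 negative controls. Arrays carry numbers 1 to 3 in each group. With the group means taken out, every one of the 9 pairs of like number correlated (r across genes 0.138 to 0.391) against -0.365 to 0.223 for 18 other pairs, so the number served as a block in an alternative.

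Members given with every array's value had an unadjusted p under 0.05 in a comparison or were among its 4 lowest, and other pathway genes were named if called or, per comparison, among the 3 lowest; 1 gene that the rule picks is not reported here. Pgam1, Sucla2 and the genes of the array number were singled out after their values were seen. The members, lists, rules and tests were chosen with earlier results of these data known.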

Additional observations from a re-analysis of the deposited data

How the results depend on the processing

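None of the 40 members was called under any of the 19 other settings of each comparison; the lowest adjusted p of a member was 0.313, in limma, in the combined comparison without wild-type array 1. The members' median difference moved from the reported value by less than the spread between replicates, 0.057 (log2), in all of them. That spread is larger than the reported medians of 0.02, 0.04 and 0.04, so a median could change sign within it. With each array left out in turn, the median was -0.02 to 0.04 in the diet comparison, 0.01 to 0.07 in the genotype comparison and -0.01 to 0.09 in the combined comparison. The number of all genes called was less stable. With array weights it was 2 in the diet comparison (0 in the fit reported) and 32 in the combined comparison (15). Without the arrays numbered 3 it was 2 in the genotype comparison (8) and 3 in the combined comparison, and from the arrays of the 2 groups alone it was 2 and 9; these fits use fewer samples. Leaving out each array in turn gave 7 to 27 in the genotype comparison and 7 to 32 in the combined comparison. It was 27 without wild-type array 1 and 17 without wild-type array 3 in the genotype comparison. It was 32 without wild-type array 3 and 7 without deficient array 1 or deficient array 2 in the combined comparison. The cause of these shifts was not tested. With array number as the replicate block, 0, 10 and 20 genes were called in the diet, genotype and combined comparisons, and it changed no call among the members or the other pathway genes. Among the arrays numbered 3 alone, a setting added after the data were seen, the medians of the members were 0.00, 0.03 and 0.01. With 3 arrays a group, the standard error of a member's difference had a median of 0.08 (log2).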
